A study of Clio pyramidata with 8 samples.

Results

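The transcripts described here are those whose levels most closely followed GAWL01040442, the most abundant transcript of Clio pyramidata, over 8 animals. They number 200 of the 27393 listed transcripts. They were chosen by their own measured levels: among transcripts that averaged 5 FPKM or more across the animals, the 100 with the largest minimum were left out, and the 200 with the largest Pearson r of log2(FPKM + 1) with GAWL01040442 were kept from the remaining 8231. GAWL01040442 is itself among the 100 left out, and is called the reference transcript below. FPKM is the number of sequenced fragments scaled to transcript length and to the size of the library, and the deposited values carry a further library factor, TMM.

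Clio pyramidata is a pteropod, a small snail with a shell that swims in the open sea, and RNA came from the whole body of an adult without its shell. Animals A, B, C and D were held at 800 ppm CO2 and animals E, F, G and H at 380 ppm, the ambient level, 4 per group with 1 library each. All of them spent 9 to 11 h alone in filtered seawater at 15 °C with streptomycin and ampicillin at 25 mg per litre each. The study addressed the response to a short rise in CO2. The labels name 2 RNA extraction methods without assigning them to animals, so no batch of extraction could be tested. Nothing in the sources used here pairs an identifier with a gene name, a sequence or a length, so no function can be given for the reference transcript or for the 200, and no markers could be checked.

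Pteropods build their shells of aragonite, a form of calcium carbonate that dissolves more readily as CO2 acidifies seawater. In a sequenced library all transcripts share 1 pool of fragments, so a transcript that takes a large share leaves fewer fragments for the rest. TMM sets a factor for each library so that most transcripts stand at similar levels across libraries. Where a library has few fragments for most transcripts, that factor makes each fragment worth more FPKM. A transcript with the same number of fragments in every library then has an FPKM that follows the worth of 1 fragment. In whole bodies, fewer cells of a type and less RNA per cell cannot be told apart.

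The reference transcript spanned a 20.9-fold range. At 800 ppm its level was 252970, 96106, 301362 and 1035589 FPKM in animals A to D, and at 380 ppm it was 1292034, 285229, 61898 and 423170 FPKM in animals E to H. The highest animals, E and D, and the lowest, G and B, each came 1 from either CO2 level. Of summed FPKM it held the smallest share in G, 13.7%, and the largest in D, 65.8%. The FPKM worth of 1 fragment, recovered from the steps between low values and set to 1 in G, was 1.90, 1.47, 2.18 and 3.98 in animals A to D and 4.67, 1.504 and 2.01 in E, F and H. D and E therefore had the fewest fragments behind each unit of FPKM as well as the most of the reference transcript. D and E also stood apart in transcripts listed at 0, with 27.8% and 22.0% against 2.57% to 9.15% in the other 6 animals.

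The 200 transcripts were moderately abundant and shared 1 profile. Their mean levels ran from 5.004 to 531 FPKM with a median of 18.7, and 23 of them averaged 100 FPKM or more. The median level of the 200 was 12.6, 7.14, 15.5 and 29.7 FPKM in animals A to D and 41.3, 12.4, 5.06 and 15.0 FPKM in animals E to H. E was the highest animal for 160 transcripts and D for 40, and G was the lowest for 166 and B for 34. In 188 of the 200, D and E were the 2 highest animals, and in 181, B and G were the 2 lowest. The full order of all 8 animals matched that of the reference transcript in 11. Of the 1600 values 1 was listed at 0, that of GAWL01017904 in G. By contrast, the median of the 8231 transcripts the members were taken from was lowest in D, at 7.39 FPKM, and lay between 10.3 and 12.5 FPKM in the other 7 animals.

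**Figure D1:**
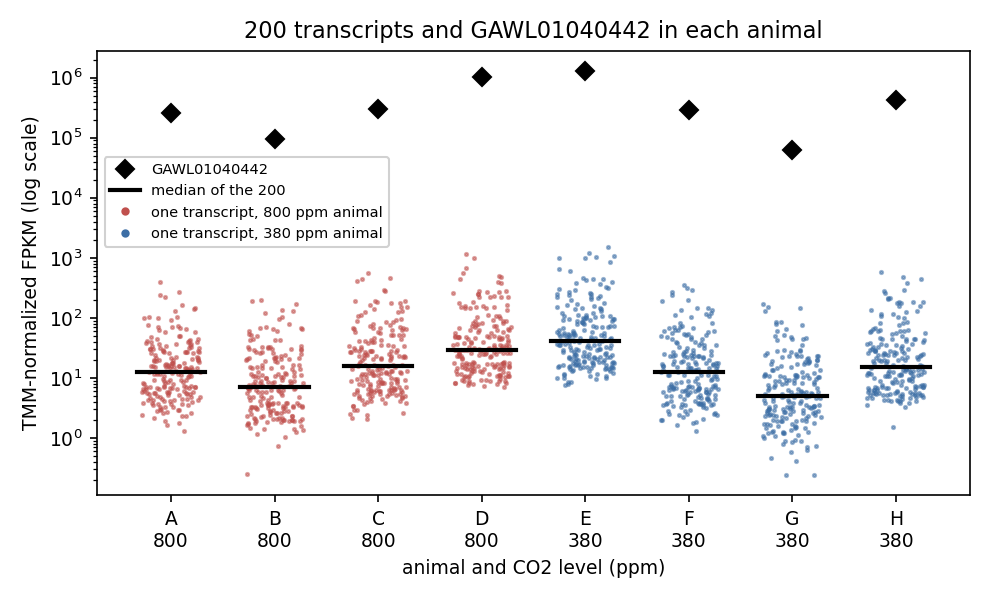
Levels of the 200 transcripts (points), their median (bars) and GAWL01040442 (diamonds) in each animal, in TMM-normalized FPKM on a log scale; the 1 value at 0 is not drawn. The median bar is highest in E at 41.3 FPKM and lowest in G at 5.06, as the diamonds are.

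The values that chose the members were their correlations, which are given as a description. They ran from 0.902 to 0.991 with a median of 0.927. Between pairs of members the median r was 0.892, with quartiles of 0.847 and 0.930. The limit of 200 cut through a continuous series: the last members, GAWL01006596 and GAWL01006541, had r = 0.9021 and r = 0.90199, and the first transcripts beyond, GAWL01024644 and GAWL01009843, had r = 0.90187 and r = 0.90176. Among the 8231 transcripts the median r was 0.00303, 4127 had an r above 0, and 138 had an r as far below 0 as the members had above it. With D and E set aside, r over the other 6 animals was at least 0.710 in each of the 200 members, with a median of 0.869. The choice itself used these 6 animals, and repeated without D and E it kept 68 of the 200.

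The closest follower, GAWL01017383 (r = 0.991), stood at 17.6, 11.5, 22.9 and 47.4 FPKM in animals A to D and at 58.9, 24.0, 9.08 and 25.7 FPKM in animals E to H. The next, GAWL01010242 (r = 0.990), stood at 14.4, 8.52, 21.9 and 50.7 FPKM in animals A to D and at 61.6, 18.0, 7.03 and 27.4 FPKM in animals E to H. In both, D and E lay above all other animals and G and B below, so that the CO2 groups overlapped. From G to E, GAWL01017383 was 6.49-fold and GAWL01010242 8.77-fold higher, where the reference transcript was 20.9-fold higher. GAWL01040969 (r = 0.984), at 1.46 FPKM in G and 10.9 in E, differed 7.48-fold. GAWL01022475 (r = 0.980), at 17.5 FPKM in G and 69.7 in E, differed 3.99-fold. The 4 closest followers thus kept the order of the extremes while covering much less than the reference transcript's range.

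The most abundant members were also high in D and E. GAWL01021220 stood at 388, 170, 468 and 1173 FPKM in animals A to D and at 982, 320, 154 and 589 FPKM in animals E to H. GAWL01005362 stood at 244, 201.5, 554 and 563 FPKM in animals A to D and at 1070, 349, 172 and 435 FPKM in animals E to H. In GAWL01021220 the highest animal was D, and in GAWL01005362 it was E, with D close to C. GAWL01012656 ranged from 148 FPKM in G to 991 in E, and GAWL01032739 from 76.9 FPKM in G to 1214 in E. The highest value of any member was 1483 FPKM, in E, where the reference transcript stood at 1292034 FPKM.

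Most members differed between animals by less than the reference transcript did. The slope of log2(FPKM + 1) on that of the reference transcript over the 8 animals is close to 1 where a transcript changes by the same factor. In low transcripts this slope is smaller, because of the pseudocount of 1. Its median was 0.59 (median SE of a member, 0.09), with quartiles of 0.48 and 0.71, and it was below 1 in 193 members and above 1 in 7. It lay within 0.25 of 1 in 45. Over all 8231 transcripts the members were taken from, this slope had quartiles of -0.44 and 0.31 and a highest value of 1.96. A slope below 1 is thus not particular to the members. From G to E, the members other than GAWL01017904, which was at 0 in G, differed by a median of 8.10-fold, and 27 of them by more than the reference transcript. From G to D they differed by a median of 6.06-fold against 16.7-fold in the reference transcript, and 17 exceeded it. The median slope was 0.55 in the 68 members averaging 5 to 10 FPKM and 0.65 in the 44 averaging 50 FPKM or more.

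**Figure D2:**
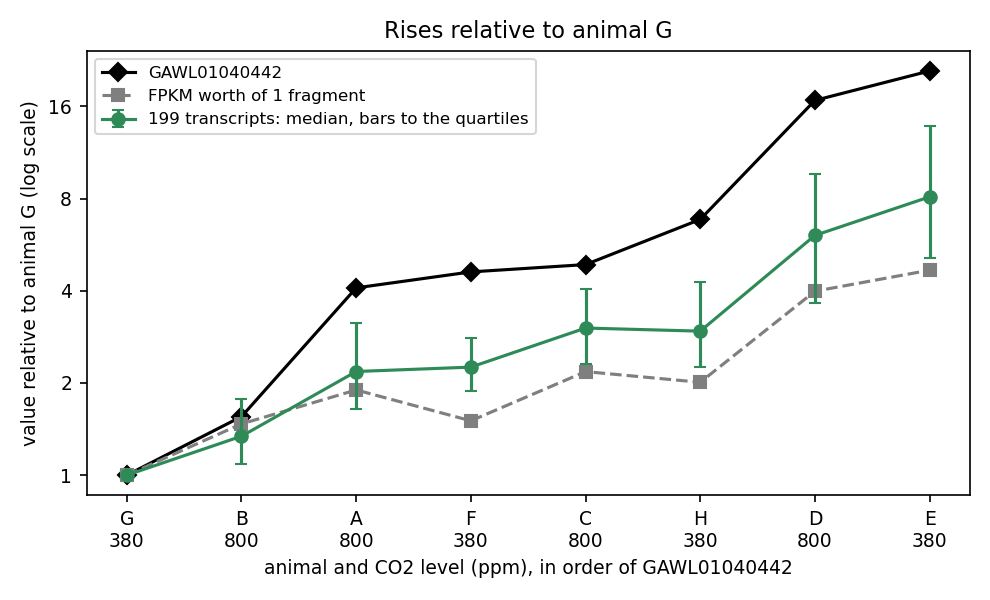
Values in each animal relative to G on a log scale, with animals in order of GAWL01040442: the reference transcript (diamonds), the FPKM worth of 1 fragment (squares) and the median of the transcripts with no value at 0 (circles, bars to the quartiles). In E these stand at 20.9, 4.67 and 8.10; the members' median lies between the other 2 values in 6 of the 7 animals set against G, and below both in B, at 1.34 against 1.553 and 1.47.

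The differences were closer in size to those of library scaling, though not equal to them. Closeness in size does not show whether the members followed library scaling or the reference transcript. For a fixed number of fragments, the slope of log2(FPKM + 1) on the log2 worth of 1 fragment is close to 1. In low transcripts the pseudocount of 1 makes it smaller. This slope had a median of 1.14 in the members (median SE of a member, 0.20) and quartiles of 0.94 and 1.49. It was above 1 in 141 members and below 1 in 59, and lay within 0.25 of 1 in 98. In 130 of the 200 it was nearer to 1 than the slope on the reference transcript. The worth of 1 fragment spanned 4.67-fold and the reference transcript 20.9-fold, so the same change gives a steeper slope on the worth. This count therefore partly restates those ranges and was not tested. Over all 8231 transcripts the slope on the worth had quartiles of -0.88 and 0.59. Without D and E the members' median slope was 1.26 on the worth of 1 fragment and 0.50 on the reference transcript. The reference transcript's own slope on the worth of 1 fragment was 1.92 with an SE of 0.26. With a pseudocount of 5 the members' median slope on the worth of 1 fragment was 0.92, and with one of 0.1 it was 1.28. The side of 1 on which it fell thus depended on that choice, and it was at least 1.08 in the 10 other alternatives. With the pseudocount of 1 it was 1.09 in the 68 members averaging 5 to 10 FPKM and 1.22 in the 44 averaging 50 FPKM or more.

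**Figure D3:**
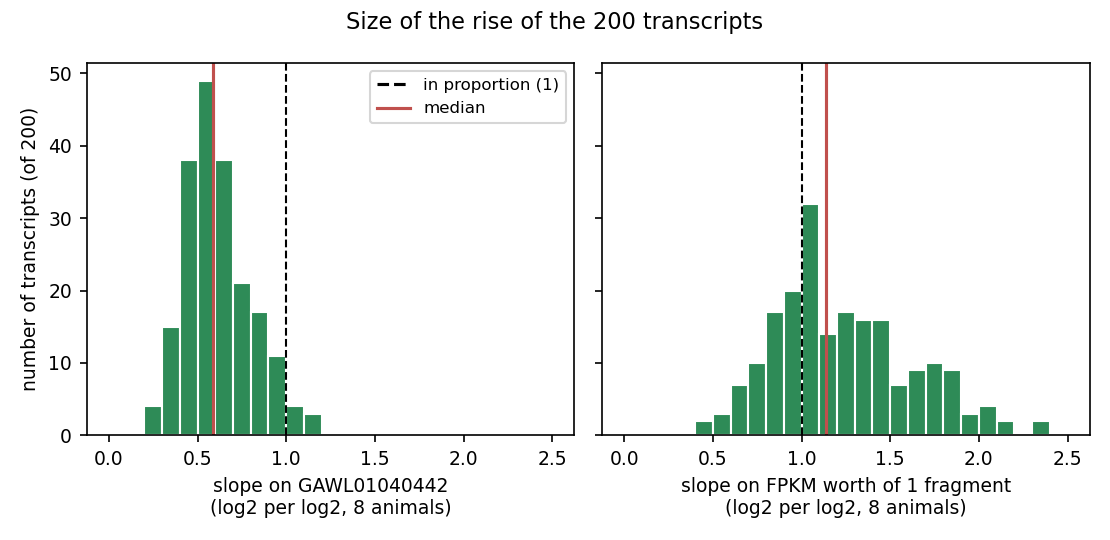
Number of transcripts by slope of log2(FPKM + 1) on log2(FPKM + 1) of GAWL01040442 (left) and on the log2 FPKM worth of 1 fragment (right), over 8 animals. The median is 0.59 on the left and 1.14 on the right. A slope of 1 (dashed) is a change in proportion, apart from the pseudocount of 1, which lowers the slope of low transcripts.

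Most of the members' range over animals went when FPKM was divided by the worth of 1 fragment, a scale on which values are proportional to fragments per unit of length and need no pseudocount. The median level of the 200 then was 6.66, 4.86, 7.12 and 7.44 in animals A to D and 8.84, 8.26, 5.06 and 7.49 in animals E to H, in units of FPKM at the worth in G. Its highest value over its lowest was 1.82, against 8.16 in FPKM. G and B were again the lowest, now with B below G, and E was again the highest. F now lay second and D lay between H and C. On the same scale the reference transcript kept a 4.47-fold range, at 2.15, 1.06, 2.24 and 4.20 times G in animals A to D and 4.47, 3.06 and 3.40 times G in E, F and H. With D and E set aside, the members' median spanned 3.06-fold in FPKM and 1.70-fold after the division, and the reference transcript 6.84-fold in FPKM.

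Member by member, the fold range of FPKM over the 8 animals had a median of 8.60 in the members with no value at 0, that is all but GAWL01017904. After division by the worth of 1 fragment it was 2.60, and it was smaller than the range of FPKM in 198. After division by the reference transcript it was 3.96, and it was smaller than the range of FPKM in 162. The range was smaller over the worth of 1 fragment than over the reference transcript in 132 of these members. A divisor that varies more adds more range of its own, and the same held in 93.7% of the 7614 transcripts with no value at 0 from which the members were taken. The members' fold range of FPKM was close to that of those 7614 transcripts, whose median was 8.90. After division by the worth of 1 fragment the median range of the 7614 was 12.2, against 2.60 in the members. Without D and E the members' median range was 3.70 in FPKM, 2.29 after division by the worth of 1 fragment and 3.03 after division by the reference transcript. The members were chosen for a shared profile, so these shares describe that choice and were not tested.

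**Figure D4:**
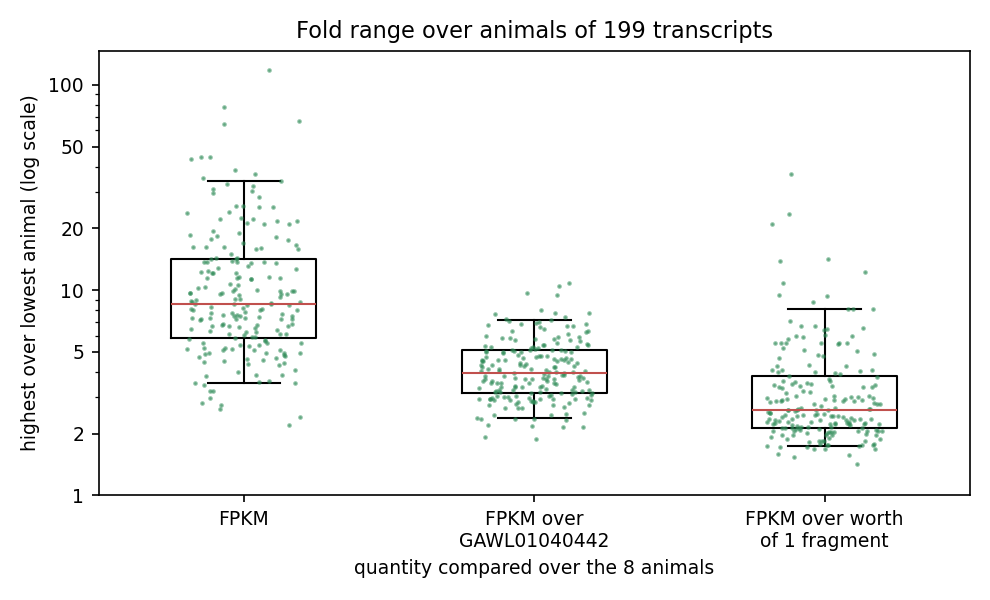
Highest over lowest animal for the transcripts with no value at 0, on a log scale, of FPKM, of FPKM divided by GAWL01040442 and of FPKM divided by the worth of 1 fragment; boxes hold the quartiles, whiskers the 5th to 95th percentiles. The median is 8.60, 3.96 and 2.60.

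Individual members departed from this pattern in both directions. GAWL01024379, with the narrowest fold range, stood at 12.4, 10.6, 12.01 and 17.2 FPKM in animals A to D and at 21.2, 14.5, 9.60 and 16.1 FPKM in animals E to H. GAWL01012383 was nearly as narrow, from 15.0 FPKM in B to 36.0 in E. These also had the flattest slopes on the reference transcript, 0.23 (SE 0.03) and 0.25 (SE 0.04), and their range was less than that of the worth of 1 fragment. GAWL01011727, which had the widest fold range of FPKM + 1, 47.0, stood at 17.7, 5.71, 20.1 and 32.6 FPKM in animals A to D and at 169, 7.36, 2.61 and 22.2 FPKM in animals E to H, with E far above every other animal. GAWL01038063, the next widest on that scale at 45.6, stood at 4.42, 2.13, 24.0 and 56.1 FPKM in animals A to D and at 142, 11.1, 3.55 and 30.7 FPKM in animals E to H. Its slope on the reference transcript, 1.19 (SE 0.20), was the steepest, followed by that of GAWL01015246 at 1.13 (SE 0.17). GAWL01015246 was higher in D, at 49.4 FPKM, than in E, at 24.8, and stood at 31.0 in H and 0.42 in G. Without the pseudocount its range of FPKM, 118-fold, was the widest among the members with no value at 0, against 64.7-fold in GAWL01011727. Divided by the worth of 1 fragment, GAWL01038063 still spanned 21.0-fold and GAWL01015246 36.7-fold. A range above 4-fold on that scale was found in 45 of the members with no value at 0, and one under 2-fold in 32.

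The members also varied in how D compared with E. The level in D over that in E had a median of 0.723 with quartiles of 0.554 and 0.890, and it ran from 0.193 to 1.997. D and E together averaged 3.001 times the mean of the other 6 animals in the median member, from 1.53 to 14.7.

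Across animals, the reference transcript was higher where 1 fragment was worth more. Its FPKM contains that worth as a factor, so the correlations of the reference transcript are a description with no test. Over the 8 animals Pearson's r between its log2(FPKM + 1) and the log2 worth was 0.949 and Spearman's rho was 0.952. Without E and D, the animals farthest from the median worth, r was 0.870. Divided by the worth of 1 fragment, the reference transcript had r = 0.822 and rho = 0.881 with the log2 worth, and r = 0.704 without E and D. Between its log2(FPKM + 1) and the log2 summed FPKM of all other transcripts, r was 0.617 and rho 0.595, and r was 0.0494 without G and E. The reference transcript and the worth of 1 fragment come from the same libraries and rose together. Which of them the 200 transcripts followed cannot be told apart over 8 animals. Ranked by r with the worth of 1 fragment in place of the reference transcript, 105 of the 200 were again among the first 200.

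The 99 transcripts left out together with the reference transcript for their large minimum, which averaged 335 to 9805 FPKM, often followed it too. Their median r with the reference transcript was 0.927, 62 of them had an r of at least 0.902, and their median slope on the worth of 1 fragment was 1.09. GAWL01005480, the transcript at the centre of another set of varying transcripts among these animals, had r = -0.0833 with the reference transcript and was not a member.

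No difference between CO2 levels was detected in any member. In a limma fit over 19379 transcripts averaging 1 FPKM or more, 0 of the 200 passed an adjusted p of 0.05, as 0% of all tested transcripts did. At an unadjusted p under 0.05 there were also 0 members, against 4.36% of all transcripts, and the smallest unadjusted p of a member was 0.394 (limma adjusted p = 0.997). Without D and E, 0 members passed the adjusted test (smallest limma adjusted p = 0.643). The groups did not overlap in 0 members, against 3.6% of all tested transcripts. After division by the worth of 1 fragment the groups did not overlap in 7 of the 200 members, against 1.91% of all tested transcripts, and with libraries rescaled to the same summed FPKM in 1 member, against 1.65%. The members share 1 profile and are not independent of each other, and 0 of them passed the adjusted limma test on either scale. In FPKM, the profile that chose them, with highest and lowest animals from both CO2 levels, left little room for such calls. After division by the worth of 1 fragment, the members' median per animal averaged 6.52 ± 1.15 at 800 ppm. At 380 ppm it averaged 7.41 ± 1.66 (SD, n = 4 animals each), and this difference was not tested. Because the members share 1 profile, the counts on these scales are no separate evidence on CO2.

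The reference transcript averaged 18.17 ± 1.41 at 800 ppm and 18.26 ± 1.81 at 380 ppm on the scale of log2(FPKM + 1) (SD, n = 4 animals each). In FPKM these groups averaged 421507 ± 418657 and 515583 ± 538612 (SD, n = 4 each). The log2 difference of -0.09 was far smaller than the SDs of 1.41 and 1.81 between animals within groups. A two-sided exact permutation test of the difference of group means gave p = 0.886, where 4 against 4 animals cannot give a p under 0.0286. The difference turned to 0.59 without E, 0.45 without B and 0.06 without H, and was -0.69 without D and -0.87 without G.

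The median difference over the 200 members was -0.04 on the log2 scale, beside -0.10 over all tested transcripts. The difference was above 0 in 88 members, or 44%, against 43.0% of all tested transcripts, and below 0 in 112. In all 200 it was smaller than the member's SD between animals within groups, whose median was 1.01, against 0.80 over all tested transcripts. The median level of the members per animal averaged 16.2 ± 9.59 FPKM at 800 ppm and 18.5 ± 15.8 FPKM at 380 ppm (SD, n = 4 animals each). The 2 members with the largest differences towards 800 ppm were GAWL01005486, with a log2 difference of 0.68 (SE 0.76, limma adjusted p = 0.997), and GAWL01024943, with 0.60. GAWL01005486 stood at 40.5, 26.3, 65.9 and 104 FPKM in A to D and at 97.0, 23.1, 10.8 and 42.6 in E to H, so E lay among the highest 800 ppm animals. The 2 with the largest differences towards 380 ppm were GAWL01038063, with -0.84, and GAWL01000820, with -0.54 (SE 0.62, limma adjusted p = 0.997). GAWL01000820 stood at 2.58, 1.77, 3.42 and 8.81 FPKM in A to D and at 16.1, 6.10, 1.97 and 4.33 in E to H. None of these 4 had groups that were apart.

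The direction of the members' differences turned on single animals, those at both ends of the profile. Without the high animal D, 23 of the 200 had a difference above 0 and the median was -0.39. Without the low animal G, 12 had one and the median was -0.48. Without the high animal E, 190 of the 200 had a difference above 0, with a median of 0.44, and without the low animal B, 162 had one, with a median of 0.27. Leaving out A, C, F or H gave medians between -0.14 and 0.07. Without both D and E, 119 were above 0 and 81 below, with a median of 0.08.

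**Figure D5:**
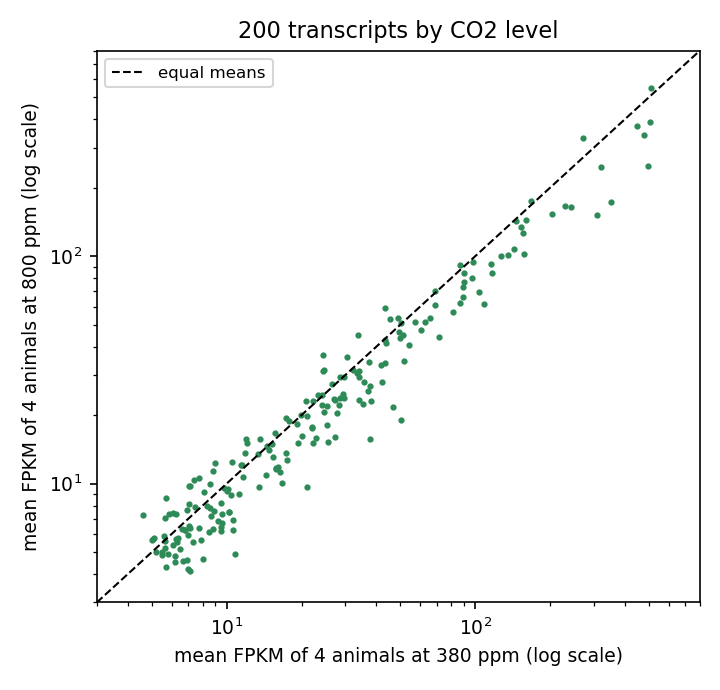
Mean FPKM of the 4 animals at 380 ppm (x axis) and at 800 ppm (y axis) for each of the 200 transcripts, both on log scales, with the line of equal means. On this scale of means, 146 transcripts lie below the line and 54 above it. Means in FPKM lean on the highest animals, and E, at 380 ppm, was the highest for 160 transcripts. On log2(FPKM + 1) the difference was below 0 in 112 and above 0 in 88, or 44%, against 43.0% of all tested transcripts. The count over all tested transcripts is not given for means in FPKM.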

How the data were processed

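The authors deposited 1 table of FPKM values, normalized by TMM per the file's name and rounded to 2 decimals, with 1 column for each of 8 animals. Per the submitters' processing notes, Trimmomatic, Bowtie and edgeR were used; their versions and roles, the assembly and the quantifier were not given in the sources used here. Read totals are not given, so absolute depth is unknown. All 8 columns matched 1 sample each and 0 were left out.

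The relative FPKM worth of 1 fragment came from a fit to 547 transcripts that stayed under 3 FPKM in all libraries. Each transcript's step was set in the 6 libraries other than D and E, and 92.7% of 177 values in D and 87.6% of 201 in E then fell within 0.1 of a whole number. The library values of D and E came from the same data, so this is not an independent check.

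Slopes are least-squares fits on log2(FPKM + 1), a scale that understates changes of low transcripts. Because FPKM are not counts, CO2 levels were compared with limma 3.58.1 (R 4.3.3, intensity trend, Benjamini-Hochberg over all 19379 transcripts) and exact permutation tests (scipy 1.17.1, Python 3.11.15). The fit of the worth of 1 fragment, the slopes and the limma fit were each run on simulated data with known values. The limma simulation used a smaller spread than these data and a large change, so it does not show what changes could be found here. Animals are separate individuals. The named members are, by a rule, those at the extremes of r, level, fold range, slope and CO2 difference and those at the limit of 200; GAWL01017904 was singled out after its values were seen. The members, lists and tests were chosen with earlier results of these data known.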

Additional observations from a re-analysis of the deposited data

How the results depend on the processing

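The count of members past the CO2 test was 0 in all 18 alternatives (pseudocounts, filters, limma's options, scalings, animals left out), with a smallest limma adjusted p between 0.627 and 0.99998. The reference transcript's difference between CO2 levels (-0.09) was 0.091 with libraries rescaled to the same median FPKM and lay between -0.87 and 0.59 when 1 animal was left out, with exact permutation p between 0.343 and 1. With 1 animal left out this two-sided test cannot give a p under 0.05. That rescaling also moved the median difference of all tested transcripts from -0.10 to 0.01, and division by the worth of 1 fragment moved it to -0.25, where the members' median was -0.19. The members' median slope on the reference transcript (0.59) was 0.44 with a pseudocount of 5, 0.34 with libraries rescaled to the same summed FPKM and 0.33 when divided by the worth of 1 fragment, and stayed between 0.55 and 0.60 with 1 animal left out. The median slope on library scaling (1.14) was 0.92 with a pseudocount of 5, 1.28 with a pseudocount of 0.1 and between 1.08 and 1.23 with 1 animal left out. Which transcripts qualify depended more on the choices. When the rule was repeated, 92 of the 200 members were kept after division by the worth of 1 fragment, 90 with the same summed FPKM, 121 with Spearman's rho, 132 with a minimum mean of 10 FPKM, 120 without D, 89 without E and 68 without both; the cause was not tested. Between 137 and 191 were kept under the other alternatives. No paired analysis was possible because the animals are separate individuals and the groups share no replicate numbers. In E, 1 fragment was worth a median of 0.276 FPKM among the low transcripts used for the fit, against 0.0592 FPKM in G. FPKM values are thus coarsest in E and D, where the lowest values of any member were 7.72 and 6.96 FPKM. Each member was lowest in G or B.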

Other observations

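Of the 7614 transcripts that averaged 5 FPKM or more, with no value at 0 and a minimum outside the largest 100, 56 spanned less than 2-fold over the 8 animals once divided by the worth of 1 fragment, and 32 of these 56 were among the 200 that follow the reference transcript. The members made up 2.43% of the 8231 transcripts they were taken from. They were chosen by r with the reference transcript, which itself had r = 0.949 with the worth of 1 fragment. This count therefore describes that choice and was not tested. The 200 together held between 0.551% of summed FPKM in B and 1.07% in E. As a share of the FPKM of all transcripts other than the reference transcript, they held 0.811%, 0.645%, 1.33% and 2.94% in animals A to D and 2.58%, 1.49%, 0.707% and 1.10% in animals E to H.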
